A study of Saccharomyces cerevisiae with 12 samples.

Results

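The genes described here are the 41 nuclear genes that encode the respiratory chain and the ATP synthase of budding yeast, taken by gene symbol from the platform annotation and measured among 5449 Saccharomyces cerevisiae genes. They comprise 4 subunits of succinate dehydrogenase (complex II), 3 NADH dehydrogenases, 9 subunits of the cytochrome bc1 complex (complex III), 2 cytochromes c, 9 subunits of cytochrome c oxidase (complex IV), 12 subunits of the ATP synthase and 2 inhibitors of its ATPase activity. All 41 listed genes had a probe set, and each had only 1. The genes were picked by name, with earlier results of these data known. The 7 subunits that mitochondrial DNA encodes were looked for in the annotation and none was found there, so they were not analysed here.

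Batch cultures of the yeast strain CENPK 113-7D grew on SD medium containing 2% glucose, and total RNA from frozen pellets was hybridised to Affymetrix arrays. There were 4 groups of 3 arrays: log phase, day 2, day 6 and day 10. All groups share the strain and the medium, and by the labels they differ only in time. The sample labels count the days in stationary phase, the series description counts them in cultivation, and which holds is not settled here. Nothing in the labels tells if the 3 arrays at each time are from separate cultures, and p-values measure the spread between these arrays, which may be technical.

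Respiring yeast passes electrons from NADH, succinate and other donors to ubiquinone, from there through complex III and cytochrome c to complex IV, which reduces oxygen. Complexes III and IV pump protons, and the ATP synthase uses the returning protons to make ATP. Budding yeast has no proton-pumping complex I, and single-subunit NADH dehydrogenases take its place. While glucose is abundant, fermentation dominates and many of these genes are held down. After the diauxic shift the cells respire the ethanol they have made.

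Levels are the deposited log2 values of a probe set, and differences are differences of these log2 values, with the standard error (SE) of the limma fit over all 12 arrays. A difference was called at a Benjamini-Hochberg adjusted p under 0.05 over all 5449 genes. The level of one probe set cannot be set against that of another, so comparisons run between times for 1 gene. The median level of all genes per array lay between 7.80 and 7.89. The background was the 95th percentile of 1746 probe sets for genes of another yeast, 5.82 in the mean of all arrays. All 41 genes had a mean above it, and 40 were above it on every array, NDE2 in log phase being the exception. No called difference among the 41 genes was smaller than the 99th percentile of the differences of those 1746 probe sets in the same comparison, which lay between 0.09 and 0.15.

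The 41 transcripts changed in 3 steps on the deposited scale. These were a partial rise by day 2, a broad rise by day 6 and a broad decline by day 10. Day 6 held the highest mean for 28 of the 41 genes, against 25.3% of all genes. Log phase held the highest mean for 6 (CYC1, COX6, ATP16, ATP5, ATP17 and ATP20), day 2 for 6 (NDI1, RIP1, CYC7, COX5B, ATP2 and ATP3) and day 10 for NDE1 alone. For 23 genes all 3 day 6 arrays lay above the 9 other arrays, a pattern found in 14.5% of all genes. All 3 day 2 arrays lay above the 9 others for NDI1, RIP1, CYC7, COX5B and ATP2, where the share of all genes was 11.6%. CYC1, COX6, ATP5 and ATP20 had all 3 log phase arrays above the 9 others, where the share of all genes was 29.8%. For 11 genes all 3 log phase arrays lay below the 9 others (30.2% of all genes). The lowest mean fell in log phase for 25 genes, on day 10 for 11, on day 2 for 4 and on day 6 for 1, ATP5, beside 37.0%, 17.1%, 23.3% and 22.6% of all genes.

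**Figure D1:**
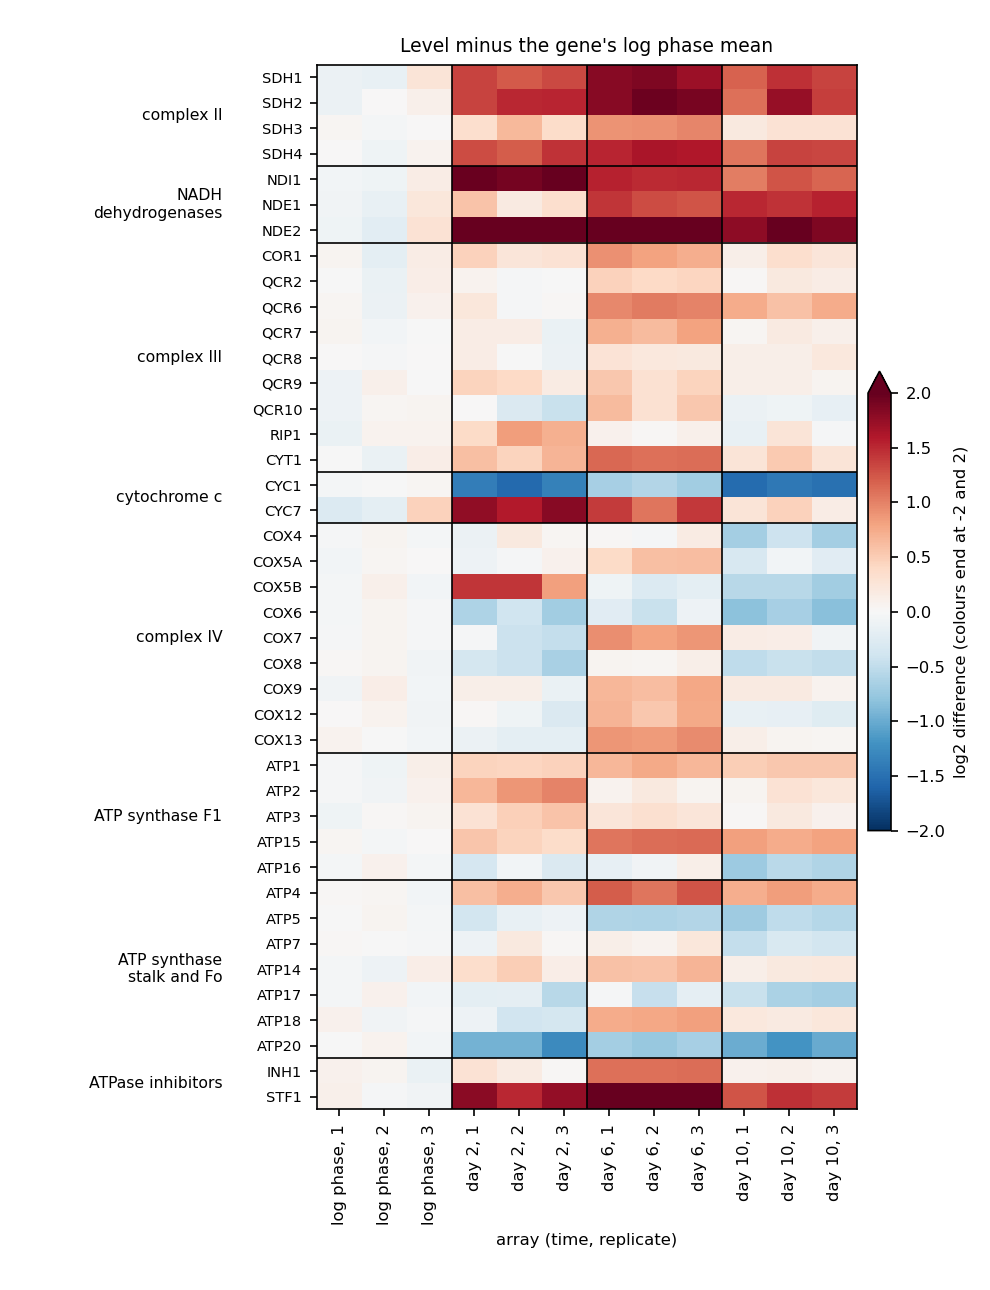
Each row is 1 of the 41 genes, grouped by complex, each column 1 of the 12 arrays, and the colour is the log2 level minus the gene's log phase mean (red higher, blue lower). The day 6 arrays are the reddest for most rows on the deposited scale, while CYC1, COX6, ATP5 and ATP20 are blue at every later time. When arrays are centred on the hybridisation controls instead, the median of the 41 genes is below log phase on day 6, as is that of all genes.

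From log phase to day 2, 20 of the 41 genes rose and 11 fell, beside 39% of all genes higher and 41.5% lower. The median difference was 0.15 among the 41 and -0.02 among all genes. Without log phase array 2, or without day 2 array 3, 7 genes in place of 11 were called lower. From day 2 to day 6, 29 rose and 7 fell, beside 35.2% and 31.9% of all genes, with a median of 0.48 against 0.02. From day 6 to day 10, 0 of the 41 rose by the limma test, also 0 at an unadjusted p under 0.05, and 35 fell, beside 28.8% and 32.1% of all genes, with a median of -0.51 against -0.02. Against log phase, 29 genes were higher and 4 lower on day 6 (all genes 41.6% and 41.1%, median 0.68). On day 10, 16 were higher and 11 lower than in log phase (all genes 39.5% and 39.8%, median 0.12). On the deposited scale the net change between day 2 and day 10 was small, with 6 genes higher and 16 lower on day 10 (all genes 34.9% and 32.1%, median -0.07). These comparisons share arrays and are not independent of each other. The F test over the 4 times called all 41 genes, beside 95.5% of all genes, and the F test among days 2, 6 and 10 called 41, beside 85% of all genes.

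These directions are relative to the deposited scaling, under which the array medians are nearly equal. Each array was also centred on its 27 hybridisation control probe sets, for bacterial and phage transcripts added at hybridisation and not to the yeast RNA. This moved the median of all genes by -0.42 on day 2, -1.19 on day 6 and -0.97 on day 10 against log phase. Controls added at that step do not measure the amount of transcript per cell. One of these controls, bioB, itself read 2.17 below bioC in log phase and 0.79 to 0.89 below it on the later days, and centring on the 18 control probe sets without bioB moved the median by -0.05, -0.86 and -0.64. On that second scale 16 of the 41 genes were higher and 4 lower on day 2, 8 higher and 17 lower on day 6, and 7 higher and 29 lower on day 10 than in log phase. With bioB included these counts were 9 and 20, 5 and 25, and 5 and 31. Day 6 minus day 2 then counted 2 higher and 20 lower without bioB, and 2 and 19 with it. The decline from day 6 to day 10 kept its sign, with 12 lower without bioB and 14 with it, and 0 higher by limma on either scale. For day 10 minus day 2 the median of the 41 was -0.62 with bioB and -0.66 without it, with 1 gene higher and 35 lower on each. Centring shifts all genes of an array alike, so changes of one gene relative to another stay as they are, which does not hold for quantile normalization. Calls among all genes moved on these scales too, so the counts above carry a shift common to all genes. The shares of all genes called on these scales are not given here. Counts on these scales, here and below, are therefore not a result about the 41 genes alone.

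The difference between the 3' and 5' signals of 8 control genes, a measure of transcript integrity and labelling, averaged 1.25 ± 0.07 over the 3 log phase arrays, with day 2 at 0.86 ± 0.24, day 6 at 1.65 ± 0.05 and day 10 at 1.28 ± 0.07 (SD). It was thus lowest on day 2 and highest on day 6, the times between which most of the 41 genes rose. With it as a covariate in the fit, 10 of the 41 genes were called higher and 1 lower from day 2 to day 6, and the median was 0.37. From day 6 to day 10, 30 were called lower and 1 higher in that fit. The measure did not overlap between day 2 (0.69 to 1.13) and day 6 (1.59 to 1.69). The fit therefore separates it poorly from time, and a call lost with it, here and below, can reflect lower precision. The shares of all genes called in that fit are not given here. Counts from it, here and below, are therefore not a result about the 41 genes alone. The part of the 3' minus 5' signal in the results was not tested further.

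**Figure D2:**
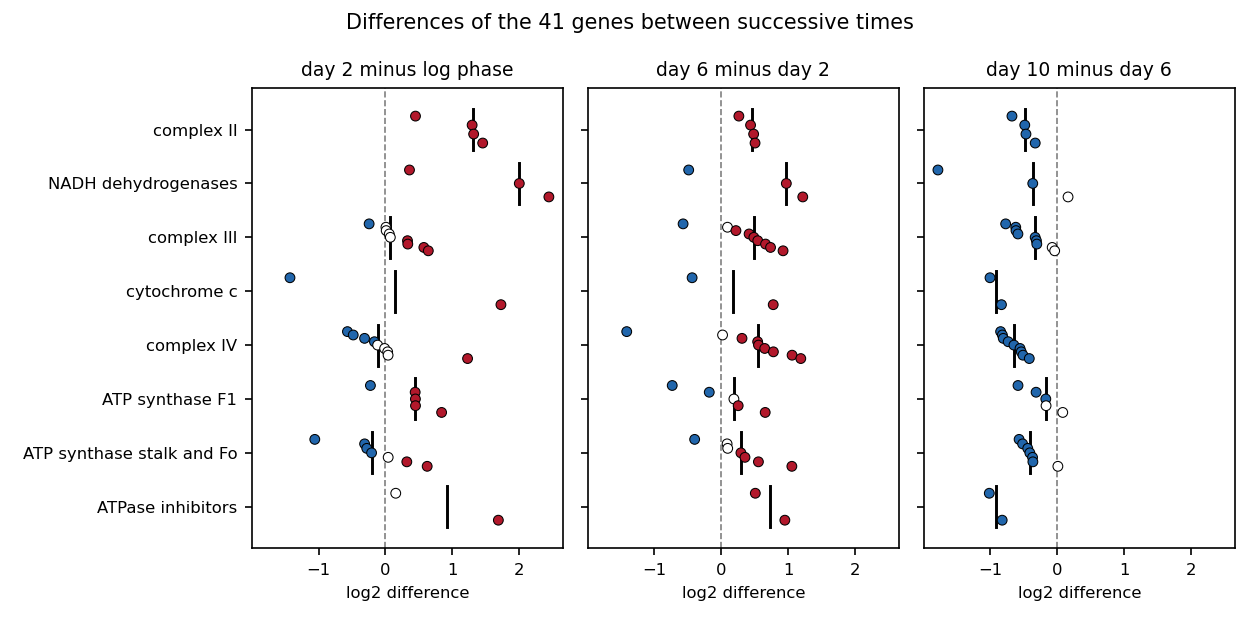
Points are the log2 differences of single genes between successive times, by complex, filled red where called higher, blue where called lower and white where not called, and the bar is the complex's median. Complex II and the NADH dehydrogenases stand to the right on day 2, and nearly all genes stand to the left from day 6 to day 10. From day 2 to day 6 the rightward position of all groups but the NADH dehydrogenases is lost when arrays are centred on the hybridisation controls.

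Complex II, which oxidises succinate and hands the electrons to ubiquinone, rose early and stayed above log phase. SDH1, the flavoprotein subunit, read 7.70, 7.67 and 8.06 on the 3 log phase arrays, 9.16, 9.04 and 9.13 on day 2, 9.63, 9.68 and 9.53 on day 6 and 8.99, 9.28 and 9.17 on day 10. The log phase arrays lay below all others and the day 6 arrays above all others. SDH2, the iron-sulfur subunit, read 8.06, 8.18 and 8.28 in log phase, 9.52, 9.68 and 9.69 on day 2, 10.00, 10.14 and 10.07 on day 6 and 9.27, 9.91 and 9.56 on day 10. Its day 10 arrays spread from below the day 2 range to above it. The membrane anchor SDH4 rose from 8.30 ± 0.08 to 9.62 ± 0.11, 9.89 ± 0.06 and 9.56 ± 0.17, and the other anchor, SDH3, from 9.31 ± 0.04 to 9.76 ± 0.17, 10.24 ± 0.04 and 9.56 ± 0.06 (mean ± SD, n = 3, in the order log phase, day 2, day 6, day 10, as in every such series that follows).

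SDH2 was 2.74-fold higher on day 2 than in log phase (log2 difference 1.45 ± 0.12 (SE), adjusted p = 1.14e-07 by limma). On day 6 the differences from log phase were 1.89 ± 0.12 for SDH2, 1.80 ± 0.10 for SDH1 (adjusted p = 1.32e-09) and 1.58 ± 0.08 for SDH4 (adjusted p = 8.62e-10). On day 10 SDH2 was still 1.41 and SDH1 1.33 above log phase (adjusted p = 1.88e-07 and 3.8e-08). All 4 subunits were called higher on each of the 3 days than in log phase, beside 39%, 41.6% and 39.5% of all genes. Their medians were 1.31, 1.69 and 1.29, and on the hybridisation-control scale with bioB 0.89, 0.50 and 0.32. Centred on the hybridisation controls without bioB the calls were 4 higher on day 2, 3 higher on day 6, and 3 higher with 1 lower on day 10. All 4 were also called higher on day 6 than on day 2, beside 35.2% of all genes, with a median of 0.46. On the hybridisation-control scales that median was -0.31 with bioB and -0.35 without it, with no subunit called higher. All 4 fell from day 6 to day 10, beside 32.1% of all genes, by a median difference of -0.48. Of these, 1 was still called lower on either hybridisation-control scale.

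The NADH dehydrogenases differed from each other in time course. NDI1, the enzyme on the matrix side of the inner membrane, read 6.96, 6.92 and 7.16 in log phase, 8.99, 8.93 and 9.13 on day 2, 8.56, 8.51 and 8.52 on day 6 and 8.04, 8.27 and 8.18 on day 10. It peaked on day 2 with no overlap between groups, and declined at both later times. It was 4.01-fold higher on day 2 than in log phase (2.00 ± 0.08 (SE), limma adjusted p = 6.98e-11) and then fell, with differences of -0.49 ± 0.08 by day 6 (adjusted p = 0.000105) and -0.85 ± 0.08 by day 10 (adjusted p = 7.16e-07), both relative to day 2. The first of these 2 declines was no longer called with the 3' to 5' covariate (-0.36, adjusted p = 0.232).

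NDE1 and NDE2 encode the external enzymes, which oxidise cytosolic NADH. NDE2 read 5.77, 5.65 and 6.15 in log phase, with 2 of the 3 arrays below the background, 8.28, 8.18 and 8.45 on day 2, 9.39, 9.59 and 9.58 on day 6 and 7.65, 7.85 and 7.72 on day 10. The 4 groups did not overlap, and the gene had the widest range of means among the 41. With log phase arrays below the background set to it, NDE2 was at least 5.11-fold higher on day 2, at least 11.9-fold on day 6 and at least 3.45-fold on day 10 than in log phase (limma adjusted p = 3.73e-10, 7.86e-12 and 5.29e-09). Between day 2 and day 6 NDE2 rose by 1.22 ± 0.12 (adjusted p = 1.05e-06), and between day 6 and day 10 the difference was -1.78 ± 0.12 (adjusted p = 8.12e-08).

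NDE1 read 9.35, 9.27 and 9.64 in log phase, 9.98, 9.60 and 9.75 on day 2, 10.85, 10.72 and 10.68 on day 6 and 10.92, 10.86 and 10.96 on day 10. It was the only one of the 41 genes whose mean was highest on day 10, although its days 6 and 10 did not differ beyond the error (0.16 ± 0.10, limma adjusted p = 0.193). With the 3' to 5' covariate that difference was 0.42 and was called (adjusted p = 0.0173), and with only the 6 arrays of the contrast in the fit it was also called (adjusted p = 0.0462). The difference from log phase was 1.49 ± 0.10 on day 10 (adjusted p = 1.7e-08). NDE1 on day 6 differed from day 2 by 0.97 ± 0.10, which was no longer called on either hybridisation-control scale (0.20 and 0.17) or with the 3' to 5' covariate (0.41, adjusted p = 0.211). The day 10 level of NDE2 was below its day 2 level (-0.57 ± 0.12) where that of NDE1 was above (1.13 ± 0.10), and with the 3' to 5' covariate the NDE2 difference was not called (-0.50, adjusted p = 0.0579).

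Complex III takes electrons from ubiquinol and passes them to cytochrome c. CYT1, the catalytic cytochrome c1 subunit, stepped from 9.20 ± 0.13 to 9.77 ± 0.12, 10.32 ± 0.03 and 9.55 ± 0.16. QCR6, an acidic subunit, read 9.91, 9.76 and 9.95 in log phase, 10.10, 9.85 and 9.90 on day 2, 10.83, 10.92 and 10.86 on day 6 and 10.61, 10.46 and 10.62 on day 10. The log phase and day 2 arrays overlapped, the day 6 arrays stood highest and the day 10 arrays lay between. On day 10 it was called higher than on day 2 (0.61 ± 0.08, limma adjusted p = 1.32e-05) where 3 complex III genes were called lower, a difference that shrank to 0.06 and 0.02 on the hybridisation-control scales with and without bioB.

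The core subunit COR1 went from 9.52 ± 0.18 to 9.85 ± 0.11, 10.33 ± 0.09 and 9.75 ± 0.11, and the second core subunit QCR2 from 9.07 ± 0.13 to 9.08 ± 0.04, 9.50 ± 0.03 and 9.19 ± 0.08. Both reached their highest mean on day 6. QCR7 had means of 10.98, 11.04, 11.70 and 11.09, QCR8 of 9.96, 9.96, 10.18 and 10.11, and QCR9 of 10.04, 10.37, 10.47 and 10.14. QCR8 moved least of the 3 small subunits. QCR10 read 10.06, 10.19 and 10.21 in log phase, 10.16, 9.86 and 9.71 on day 2, 10.79, 10.46 and 10.70 on day 6 and 10.03, 10.06 and 9.99 on day 10. On day 2 it was the only complex III gene called lower than in log phase (-0.24 ± 0.11, adjusted p = 0.0481), a call at the threshold. It was lost without log phase array 2 or 3, day 2 array 2 or 3, day 6 array 3 or any 1 of the day 10 arrays, with differences between -0.24 and -0.14, and with the 3' to 5' covariate the difference was 0.09.

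Over the 9 genes of complex III, 4 were called higher and 1 lower on day 2 than in log phase, beside 39% and 41.5% of all genes. The median was 0.07, which was -0.35 on the hybridisation-control scale with bioB. From day 2 to day 6, 7 rose and 1 fell with a median of 0.49 (all genes 35.2% and 31.9%). From day 6 to day 10, 0 rose by limma (0 at an unadjusted p under 0.05) and 7 fell with a median of -0.33 (28.8% and 32.1%). Centred on the hybridisation controls the day 2 to day 6 median was -0.28 with bioB and -0.32 without it, with 4 genes called lower and no gene called higher in each.

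RIP1, the Rieske iron-sulfur subunit, was the complex III gene that went against the rest from day 2 to day 6. It read 8.88, 9.07 and 9.07 in log phase, 9.38, 9.85 and 9.71 on day 2, 9.10, 9.03 and 9.11 on day 6 and 8.87, 9.27 and 8.98 on day 10. Only the day 2 arrays stood high, and the other 3 groups overlapped. The day 6 minus day 2 difference was -0.57 ± 0.12 (limma adjusted p = 0.000828), and with the 3' to 5' covariate it was 0.20 (adjusted p = 0.557). The array also carries 3 control probe sets for RIP1, placed along its transcript, which allow a comparison by position. The 5' one read 8.47 ± 0.12 in log phase, 9.29 ± 0.36 on day 2, 8.48 ± 0.07 on day 6 and 8.57 ± 0.19 on day 10. The middle one read 8.67 ± 0.07, 9.07 ± 0.14, 8.59 ± 0.14 and 8.42 ± 0.19, and the 3' one 9.02 ± 0.11, 9.34 ± 0.08, 9.10 ± 0.08 and 8.87 ± 0.15 at the same times. All 3 were highest on day 2, and the day 6 minus day 2 difference was -0.81 at the 5' end, -0.48 in the middle and -0.25 at the 3' end. The RIP1 5' and 3' probe sets are themselves among the 8 control genes behind the 3' to 5' measure.

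Cytochrome c, which carries electrons from complex III to complex IV, has 2 isoforms in yeast. CYC1 encodes the main one of aerobic cells and CYC7 the minor one, which is known for higher expression at low oxygen and under stress. CYC1 read 10.64, 10.67 and 10.71 in log phase, 9.30, 9.12 and 9.32 on day 2, 10.01, 10.09 and 9.98 on day 6 and 9.14, 9.25 and 9.18 on day 10. Log phase was the highest group, day 6 came second, and days 2 and 10 overlapped at the bottom. CYC7 read 6.14, 6.22 and 6.88 in log phase, 8.19, 8.00 and 8.24 on day 2, 7.81, 7.48 and 7.83 on day 6 and 6.67, 6.87 and 6.56 on day 10. Here day 2 was highest, and log phase array 3 was level with the highest day 10 array.

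CYC1 was lower on day 2 than in log phase by 2.69-fold (-1.43 ± 0.06, limma adjusted p = 1.79e-10), while CYC7 was 3.31-fold higher (1.73 ± 0.16, adjusted p = 3.61e-07). By day 6 CYC1 had recovered, from day 2, by 0.78 ± 0.06 (adjusted p = 2.37e-07) and CYC7 differed by -0.44 ± 0.16 (adjusted p = 0.0316). On the hybridisation-control scale with bioB the CYC1 difference between these days was 0.01 (adjusted p = 0.964), and without bioB it was -0.03. The CYC7 change was not called without day 2 array 1, day 2 array 3 or day 6 array 2 (-0.41, -0.39 and -0.32). With the 3' to 5' covariate the CYC7 difference was larger but not called (-0.62, limma adjusted p = 0.331). From day 6 to day 10 both fell, with log2 differences for CYC1 of -0.83 ± 0.06 and for CYC7 of -1.01 ± 0.16 (adjusted p = 2.4e-07 and 0.000161). On day 10 CYC1 was 2.8-fold below log phase (-1.49 ± 0.06, adjusted p = 1.68e-10), and CYC7 differed from log phase by 0.29 ± 0.16 (adjusted p = 0.126), which became 0.52 and was called without log phase array 3 (adjusted p = 0.00145).

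Complex IV transfers the electrons to oxygen, and the 9 genes here encode its nuclear subunits around a mitochondrially encoded core. On day 2, 4 of the 9 were called lower than in log phase and 1, COX5B, higher (all genes 41.5% lower and 39% higher). By day 6, 7 had risen from day 2 and 1, again COX5B, had fallen, beside 35.2% and 31.9% of all genes. The median was 0.56. Centred on the hybridisation controls that median was -0.21 with bioB and -0.25 without it, with 1 gene, COX7, higher and 3 lower. From day 6 to day 10 all 9 fell, beside 32.1% of all genes, with a median of -0.65. On each hybridisation-control scale 5 of the 9 were still called lower.

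COX7 read 10.44, 10.53 and 10.44 in log phase, 10.45, 10.04 and 9.99 on day 2, 11.40, 11.28 and 11.36 on day 6 and 10.61, 10.60 and 10.40 on day 10. COX13 read 10.49, 10.42 and 10.37 in log phase, 10.32, 10.24 and 10.24 on day 2, 11.31, 11.28 and 11.38 on day 6 and 10.54, 10.49 and 10.47 on day 10. In both genes the day 6 arrays stood apart above a band that held all the others. COX7 rose 2.28-fold from day 2 to day 6 (1.19 ± 0.10, limma adjusted p = 4.55e-07) and COX13 2.08-fold (1.06 ± 0.05, adjusted p = 5.74e-09). With the 3' to 5' covariate the COX7 difference was 0.47 (adjusted p = 0.0795), and on the hybridisation-control scales the COX13 difference was 0.29 with bioB and 0.25 without it, neither of them called.

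COX12 had the same shape, with 10.47 ± 0.07, 10.35 ± 0.16, 11.13 ± 0.11 and 10.29 ± 0.05, and its decline from day 6 to day 10 was -0.85 ± 0.08 (limma adjusted p = 1.72e-06). COX9 had means of 10.01, 10.04, 10.69 and 10.16. COX8 dipped on day 2 and again on day 10, with means of 10.17, 9.69, 10.24 and 9.69. COX4 stayed between 10.12 and 10.18 through day 6 and fell to 9.53 on day 10, -0.63 ± 0.09 from day 2 (adjusted p = 4.03e-05). COX6 was highest in log phase, with means of 10.01, 9.44, 9.75 and 9.24. On day 6 it was the only complex IV gene called below log phase (-0.26 ± 0.09, adjusted p = 0.0197), a call lost without log phase array 2 (-0.23) or day 6 array 2 (-0.16), under quantile normalization (-0.19) and with the 3' to 5' covariate (-0.24).

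COX5A and COX5B encode alternative forms of one subunit, of which COX5B is known as the form of low oxygen. COX5A read 10.10, 10.20 and 10.16 in log phase, 10.05, 10.13 and 10.23 on day 2, 10.54, 10.75 and 10.77 on day 6 and 9.83, 10.10 and 9.93 on day 10. The differences were -0.01 ± 0.08 on day 2 from log phase (limma adjusted p = 0.895), higher on day 6 (0.54 ± 0.08 from day 2, adjusted p = 6.28e-05) and lower on day 10 (-0.73 ± 0.08 from day 6, adjusted p = 6.1e-06), while on the hybridisation-control scales the day 6 minus day 2 difference was -0.22 with bioB and -0.26 without it. COX5B read 6.51, 6.66 and 6.49 in log phase, 7.98, 7.99 and 7.37 on day 2, 6.46, 6.28 and 6.35 on day 6 and 6.00, 5.99 and 5.85 on day 10. Day 2 alone was high, its array 3 lower than the other 2 but above every array of the other groups.

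COX5B was 2.34-fold higher on day 2 than in log phase (1.23 ± 0.13, limma adjusted p = 1.19e-06). It then fell 2.67-fold by day 6 (-1.41 ± 0.13, adjusted p = 9.04e-07), the largest difference of that contrast among the 41 genes. By day 10 it was 3.56-fold below day 2 (-1.83 ± 0.13, adjusted p = 9.16e-08) and -0.60 from log phase (adjusted p = 0.000855). Its day 10 mean, 5.95, was close to the day 10 background of 5.80, so these declines may be understated. The day 10 minus day 6 difference was -0.42 ± 0.13 (adjusted p = 0.0144), and it was not called without day 6 array 1 or day 10 array 3 (both -0.37) on the hybridisation-control scales (-0.20 in both) or with the 3' to 5' covariate (-0.14, adjusted p = 0.527).

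The ATP synthase joins a catalytic F1 head to a membrane-bound Fo part through a central and a peripheral stalk. In F1, the catalytic ring subunits are ATP1 and ATP2, and the central stalk subunits are ATP3, ATP15 and ATP16. ATP1 rose to 11.31 ± 0.01 on day 2 from 10.87 ± 0.10 in log phase and had 11.57 ± 0.06 and 11.39 ± 0.03 on days 6 and 10. ATP2 read 10.25, 10.20 and 10.35 in log phase, 10.92, 11.14 and 11.25 on day 2, 10.33, 10.46 and 10.32 on day 6 and 10.33, 10.55 and 10.49 on day 10. Both ring subunits were called higher on day 2 than in log phase, and on day 6 the ATP2 arrays overlapped those of log phase while the ATP1 arrays did not. The ATP2 difference between day 10 and day 2 was -0.65 ± 0.09 (limma adjusted p = 1.98e-05).

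ATP15 climbed from 9.90 ± 0.04 to 10.35 ± 0.09 and 11.01 ± 0.03 and stood at 10.69 ± 0.04 on day 10, the only F1 gene called higher on day 10 than on day 2 (0.34 ± 0.06, limma adjusted p = 0.000159), which turned to -0.21 and -0.25 on the hybridisation-control scales with and without bioB and was not called with the 3' to 5' covariate (0.18, adjusted p = 0.0943). ATP3 had means of 9.71, 10.15, 9.97 and 9.81. ATP16 went the other way, with means of 10.34, 10.11, 10.30 and 9.72. On day 2 it was the only F1 gene called lower than in log phase (-0.22 ± 0.09, adjusted p = 0.0325), a call lost without log phase array 2 (-0.18), day 2 array 1 (-0.17) or day 2 array 3 (-0.19). On day 10 it was again the only one called lower than in log phase (-0.62 ± 0.09, adjusted p = 2.2e-05), where 2 F1 genes were called higher.

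The 7 stalk and Fo genes did not move together. ATP4, a peripheral stalk subunit, read 10.08, 10.09 and 10.00 in log phase, 10.66, 10.78 and 10.60 on day 2, 11.27, 11.13 and 11.31 on day 6 and 10.78, 10.90 and 10.80 on day 10. ATP18, a small Fo subunit, read 9.84, 9.69 and 9.74 in log phase, 9.65, 9.37 and 9.40 on day 2, 10.49, 10.53 and 10.57 on day 6 and 9.96, 9.93 and 9.99 on day 10. ATP4 stood above log phase at all later times, while ATP18 dipped on day 2 before its day 6 peak. The ATP4 difference from log phase was 0.62 ± 0.07 on day 2 and 0.77 ± 0.07 on day 10 (limma adjusted p = 1.2e-06 and 1.65e-07). On day 10 it was not called on either hybridisation-control scale (-0.20 with bioB, 0.13 without). ATP18 was 2.08-fold higher on day 6 than on day 2 (1.06 ± 0.07, adjusted p = 5.35e-08), which was 0.29 and 0.25 and no longer called on those scales.

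ATP14 had means of 9.54, 9.86, 10.16 and 9.71, and ATP7 of 10.29, 10.33, 10.42 and 9.91. With ATP4, ATP14 was the other stalk gene called higher on day 2 (0.32 ± 0.09, limma adjusted p = 0.00388), a difference of -0.10 with hybridisation controls that include bioB and 0.27, not called, without it. ATP20, a subunit known for its part in joining 2 ATP synthases into a dimer, read 10.61, 10.69 and 10.57 in log phase, 9.68, 9.67 and 9.35 on day 2, 9.94, 9.86 and 9.96 on day 6 and 9.63, 9.42 and 9.61 on day 10. ATP5, which ties the head to the peripheral stalk, read 10.20, 10.26 and 10.16 in log phase, 9.84, 10.06 and 10.10 on day 2, 9.60, 9.59 and 9.61 on day 6 and 9.50, 9.71 and 9.63 on day 10. In both genes every log phase array lay above every later array.

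On day 6, when 3 stalk and Fo genes were called above log phase (none on the hybridisation-control scales), ATP20 and ATP5 were called below it (-0.70 ± 0.09 and -0.61 ± 0.07, limma adjusted p = 4.28e-06 and 3.69e-06). ATP5 was also the only stalk or Fo gene called lower on day 6 than on day 2 (-0.40 ± 0.07, adjusted p = 0.000348), which with the 3' to 5' covariate became 0.09 (adjusted p = 0.671). ATP17 drifted down with means of 10.18, 9.87, 9.95 and 9.59. Over all 12 ATP synthase subunits, 6 rose and 5 fell by day 2 (all genes 39% and 41.5%), and 6 rose and 3 fell between days 2 and 6 (35.2% and 31.9%). Between days 6 and 10, 0 rose by limma (0 at an unadjusted p under 0.05) and 9 fell (28.8% and 32.1%). On the hybridisation-control scales the counts for day 2 were 1 higher and 6 lower with bioB and 5 higher and 1 lower without it, from day 2 to day 6 no subunit was higher and 9 were lower on each, and from day 6 to day 10 no subunit was called in either direction.

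INH1 and STF1 encode small proteins that bind F1 and keep it from hydrolysing ATP when the proton gradient fails. INH1 read 9.99, 9.96 and 9.76 in log phase, 10.19, 10.06 and 9.92 on day 2, 11.00, 11.01 and 11.02 on day 6 and 9.99, 10.01 and 9.98 on day 10. STF1 read 8.17, 8.04 and 8.01 in log phase, 9.87, 9.59 and 9.83 on day 2, 10.21, 10.40 and 10.21 on day 6 and 9.34, 9.53 and 9.47 on day 10. The day 6 arrays of INH1 stood about a log2 unit above a band formed by the other groups, while STF1 was above log phase at every later time. STF1 was 3.22-fold higher on day 2 (1.69 ± 0.09, limma adjusted p = 7.24e-10), 4.59-fold on day 6 (2.20 ± 0.09, adjusted p = 4.56e-11) and 2.59-fold on day 10 (1.37 ± 0.09, adjusted p = 6.21e-09), each against log phase. INH1 did not pass the test on day 2 (0.15 ± 0.07, adjusted p = 0.0665) or on day 10 (0.09 ± 0.07, adjusted p = 0.275) against log phase, and without log phase array 1 or day 2 array 3 its day 2 difference was called (0.20 and 0.22).

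Between days 2 and 6 INH1 rose by 0.95 ± 0.07 (limma adjusted p = 1.58e-07) and STF1 by 0.51 ± 0.09 (adjusted p = 0.000167), but on the hybridisation-control scales these were 0.18 and -0.26 with bioB, and 0.14 and -0.30 without it. With the 3' to 5' covariate the STF1 difference was not called (0.40, adjusted p = 0.223). From day 6 to day 10 the differences were -1.02 ± 0.07 for INH1 and -0.82 ± 0.09 for STF1 (adjusted p = 1.83e-07 and 3.6e-06), and both stayed called on the hybridisation-control scales.

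Within 4 pairs of genes that serve one role, the difference between the 2 genes on the same array is unaffected by centring the array. Quantile normalization, which moves genes unequally, altered the change between the lowest and the highest of the 4 means by 0.24 for COX5B minus COX5A, -0.14 for CYC7 minus CYC1, -0.23 for NDE2 minus NDE1 and -0.04 for STF1 minus INH1. Only the change of a pair's difference over time can be read, since the probe sets differ in brightness for the same amount of RNA. For CYC7 minus CYC1 the log2 difference began at -4.26 ± 0.37 in log phase, was -1.11 ± 0.02 on day 2 and -2.32 ± 0.25 on day 6, and ended at -2.49 ± 0.12 (SD over 3 arrays). The balance thus moved by 3.16 towards CYC7 by day 2 and part of the way back afterwards. For NDE2 minus NDE1 it was -3.56 ± 0.06, -1.47 ± 0.21, -1.23 ± 0.20 and -3.17 ± 0.14 in the order of the times, higher on days 2 and 6 than on day 10. As log phase NDE2 is at the background, that pair's log phase value is an upper limit and is not set against day 10. For COX5B minus COX5A it was -3.60 ± 0.07, -2.36 ± 0.44, -4.32 ± 0.21 and -4.00 ± 0.15, with the shift towards COX5B found on day 2 alone. As COX5B is close to the background on day 10, that pair's day 10 value may be too high. For STF1 minus INH1 it was -1.83 ± 0.08, -0.30 ± 0.19, -0.74 ± 0.11 and -0.55 ± 0.10, and here the shift of 1.53 towards STF1 was largely kept. An exact permutation test over all 369600 assignments of the 12 arrays to 4 groups, two-sided, gave p = 0.000195 for each of the first 3 pairs and 0.00026 for the last. Adjusted over the 4 pairs, p was 0.00026 for each, where the smallest p the assignments allow is 6.49e-05. Cross-hybridisation between paralogues was not tested.

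**Figure D3:**
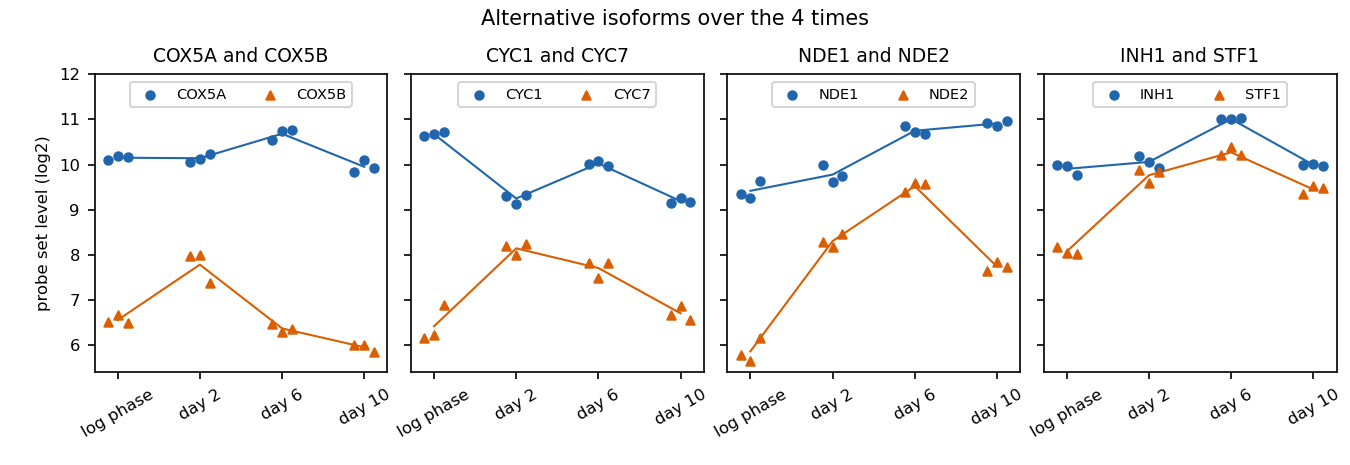
Points are the log2 levels of the 2 genes of each pair on the 3 arrays of each time, and lines join the means. The gap between the genes narrows on day 2 in all 4 pairs. It has widened again by day 6 for COX5A and COX5B, and in part for CYC1 and CYC7. By day 10, against day 6, it has widened for NDE1 and NDE2, while for INH1 and STF1 it stays narrow. The gap is unaffected by centring the arrays, but the slope of a single line is not: centred on the hybridisation controls, COX5A and STF1 are lower on day 6 than on day 2.

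Across the 12 arrays the 41 profiles differed in how closely they followed the rest. The correlation of each gene with the median of the other 40, given as a description over 12 arrays that share their scaling, was highest for SDH3 (0.96), INH1 and CYT1 (both 0.94). It was near or below 0 for ATP5 (-0.61), ATP20 (-0.27), CYC1 and COX5B (both -0.07), ATP2 (-0.06), ATP17 (-0.0023), RIP1 (0.03) and COX6 (0.08), and the next gene was ATP16 (0.29). Every complex but complex II, the NADH dehydrogenases and the inhibitors thus held at least 1 gene outside the common profile. The correlation of the day 2 minus log phase difference with gene length, across genes, which are not independent replicates, was 0.48 over the 41 genes and 0.17 over all 5449. For day 6 minus day 2 it was -0.26 and -0.02, and for day 10 minus day 6 it was 0.22 and 0.0069.

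Around the 41 genes, 103 of 112 genes in 11 further lists of respiratory function were measured. The lists were compiled from general knowledge, with earlier results of these data known. Among 8 transcription factors known to act on respiratory genes, 7 rose and 1 fell by day 2, beside 39% and 41.5% of all genes. On the hybridisation-control scales 3 rose and 1 fell with bioB, and 6 rose and 0 fell without it. HAP4, the activating and glucose-regulated subunit of the HAP complex, read 8.66, 8.65 and 8.81 in log phase, 10.92, 10.54 and 10.39 on day 2, 10.71, 10.48 and 10.78 on day 6 and 10.39, 10.35 and 10.39 on day 10. It was 3.76-fold higher on day 2 (1.91 ± 0.11, limma adjusted p = 3.34e-09) and its difference between days 2 and 6 was 0.04 ± 0.11 (adjusted p = 0.785), the interval over which 29 of the 41 genes rose. On the hybridisation-control scales all 8 factors, HAP4 included, were called lower on day 6 than on day 2.

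The DNA-binding subunits of that complex moved less. HAP5 rose by 1.02 and HAP2 by 0.60 by day 2, and HAP3 was -0.25 from log phase (adjusted p = 1.04e-07, 7.51e-05 and 0.00185). HAP1, a heme-responsive activator, rose by 0.60 by day 2 and then fell, with a difference of -0.82 from day 2 to day 10 (adjusted p = 3.45e-05). ROX1, the repressor of genes of low oxygen, was higher than in log phase at each later time, with means of 7.49, 8.79, 8.96 and 9.44, and its step from day 2 to day 6 was not called (0.17 ± 0.10, adjusted p = 0.177). ROX1 was 1.95 above log phase on day 10 (adjusted p = 1.46e-09). MOT3, another repressor, was 0.32 and IXR1 0.64 above log phase on day 2 (adjusted p = 0.000633 and 9.32e-06).

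**Figure D4:**
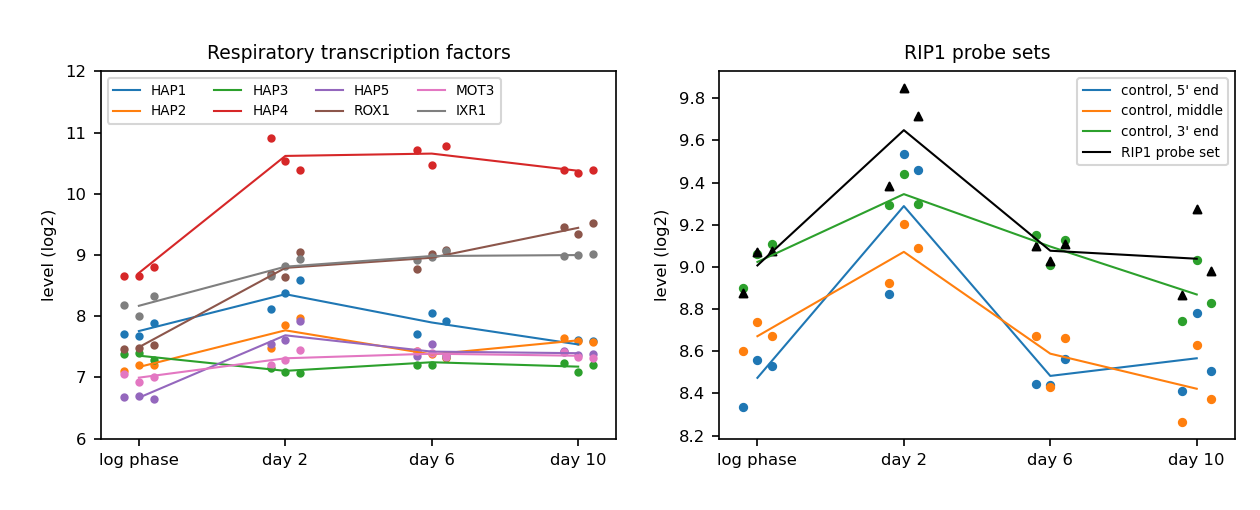
The left panel shows the log2 levels of 8 transcription factors of respiratory genes on each array with lines through the means, and the right panel those of the RIP1 probe set (triangles) and the 3 RIP1 control probe sets. HAP4 rises by day 2 and stays between 10.35 and 10.92 thereafter on the deposited scale, whereas on the hybridisation-control scales it is lower on day 6 than on day 2. All 4 RIP1 probe sets are highest on day 2.

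Other enzymes that feed electrons into the chain rose early too. All 3 in the list were called higher on day 2 than in log phase, beside 39% of all genes. GUT2, the mitochondrial glycerol-3-phosphate dehydrogenase, rose 8.78-fold (3.13 ± 0.11, limma adjusted p = 2.44e-11), and CYB2, the L-lactate dehydrogenase that reduces cytochrome c, 5.6-fold (2.48 ± 0.12, adjusted p = 6.44e-10). DLD1, the D-lactate dehydrogenase, rose by 0.45 (adjusted p = 0.000358). The list's median against log phase was 2.48, 2.33 and 1.02 on days 2, 6 and 10, and 2.06, 1.14 and 0.06 on the hybridisation-control scale with bioB, where 1 of the 3 was called lower on days 6 and 10.

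Among the carriers that exchange ATP, ADP and phosphate across the inner membrane, 4 of 5 rose by day 2 and AAC3, the ADP/ATP carrier of anaerobic cells, fell. Of all genes, 39% rose and 41.5% fell by then. AAC1 read 6.68, 6.75 and 6.77 in log phase, 8.61, 8.31 and 8.55 on day 2, 9.53, 9.62 and 9.81 on day 6 and 8.66, 8.72 and 8.61 on day 10, and its day 6 minus log phase difference was 2.92 ± 0.09 (limma adjusted p = 4.16e-12). PIC2, a phosphate and copper carrier, rose by 2.17 ± 0.09 by day 2. The main ADP/ATP carrier PET9 rose by 0.31 ± 0.06 from day 2 to day 6, but on the hybridisation-control scales it was called lower (-0.46 with bioB, -0.50 without). AAC3 was below background on day 6, at least 1.98-fold lower than in log phase. On the hybridisation-control scale with bioB, 2 of the 5 carriers were called higher and 1 lower on day 2.

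Of the 7 further subunits and paralogues measured, SHH3, a paralogue of SDH3, had the largest change. It read 6.03, 5.89 and 6.03 in log phase, 7.71, 7.70 and 7.94 on day 2, 9.38, 9.69 and 9.85 on day 6 and 7.73, 7.97 and 7.82 on day 10, a difference of 3.66 ± 0.11 between day 6 and log phase (limma adjusted p = 5.07e-12). STF2, a factor linked to the inhibitor proteins, read 9.15, 9.38 and 9.38 in log phase, 11.50, 11.34 and 11.13 on day 2, 10.92, 10.70 and 10.67 on day 6 and 10.10, 10.17 and 10.12 on day 10. Its peak was on day 2 (2.02 ± 0.10 from log phase, adjusted p = 4.19e-10).

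Among 25 complex IV assembly factors, 5 rose and 13 fell by day 2 (all genes 39% and 41.5%), 12 rose and 2 fell between days 2 and 6 (35.2% and 31.9%), and 1 rose and 19 fell between days 6 and 10 (28.8% and 32.1%). CMC1 and COX17, which take part in copper delivery to complex IV, were -1.45 and -1.39 from log phase on day 2 (limma adjusted p = 2.8e-08 and 5.23e-07), and COX20 was 1.26 higher (adjusted p = 3.8e-10). PET117 and PET100 differed by 1.60 and 1.24 from day 2 to day 6 (adjusted p = 2.23e-08 and 4.45e-07). Among 13 assembly factors of complexes II and III and cytochrome c, 4 rose and 8 fell by day 2 (39% and 41.5% of all genes). From day 2 to day 6, 10 rose and 1 fell (35.2% and 31.9%). On the hybridisation-control scale with bioB the day 2 to day 6 counts were 2 higher and 15 lower for complex IV factors, and 0 higher and 7 lower for the others. SDH8 rose by 1.32 by day 2 and SDH6 by 1.68 by day 6 against log phase (adjusted p = 2.25e-09 and 3.04e-08), both of them factors that mature complex II. MZM1, a complex III factor, was -1.33 from log phase on day 2 (adjusted p = 5.8e-09).

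The list of 10 ATP synthase assembly factors also holds factors for the enzyme's mitochondrial transcripts (ATP22, AEP1, AEP2, AEP3 and NCA2). ATP10 was below background at every time and its level is not read. Of the other 9, 4 rose and 5 fell by day 2, beside 39% and 41.5% of all genes. Those that rose were ATP22, AEP1, AEP3 and NCA2, and those that fell were ATP11, ATP12, ATP23, FMC1 and AEP2. ATP12, a chaperone of F1, was at -1.07 from log phase (limma adjusted p = 8.22e-10). Of 13 translation and RNA factors for mitochondrial respiratory transcripts, 3 rose and 9 fell by day 2, beside the same shares of all genes. MRS1 was at -1.15 and CBP1 at -1.01 (adjusted p = 6.57e-10 and 9.04e-09). Heme synthesis, which supplies complexes III and IV and cytochrome c, had 1 of 8 genes higher and 5 lower on day 2 (all genes 39% and 41.5%). HEM13 was at -1.04 and HEM3 at -0.76 from log phase (adjusted p = 1.07e-08 and 1.19e-06).

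Genes of ubiquinone synthesis declined at the later times. Of 11, 3 rose and 3 fell by day 2 (all genes 39% and 41.5%). From day 2 to day 6, 0 rose by limma and 7 fell (35.2% and 31.9%). From day 6 to day 10, 1 rose and 7 fell (28.8% and 32.1%). On day 10, 0 were called higher and 10 lower than in log phase (39.5% and 39.8%). At an unadjusted p under 0.05, 0 rose in these last comparisons of day 6 with day 2 and of day 10 with log phase. COQ5, a methyltransferase of the pathway, read 9.33, 9.49 and 9.18 in log phase, 9.02, 8.97 and 9.05 on day 2, 8.46, 8.52 and 8.39 on day 6 and 7.78, 8.06 and 7.76 on day 10. Its groups went down in order without overlap, to a difference of -1.47 ± 0.09 on day 10 (limma adjusted p = 4.62e-09). CAT5, a hydroxylase, reached -1.09 and COQ10, a ubiquinone-binding protein, -1.21 on day 10 (adjusted p = 2.2e-07 and 2.97e-09). The list was lower on both hybridisation-control scales as well, with all 11 genes called lower from day 2 to day 6 and on day 10 against log phase.

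**Figure D5:**
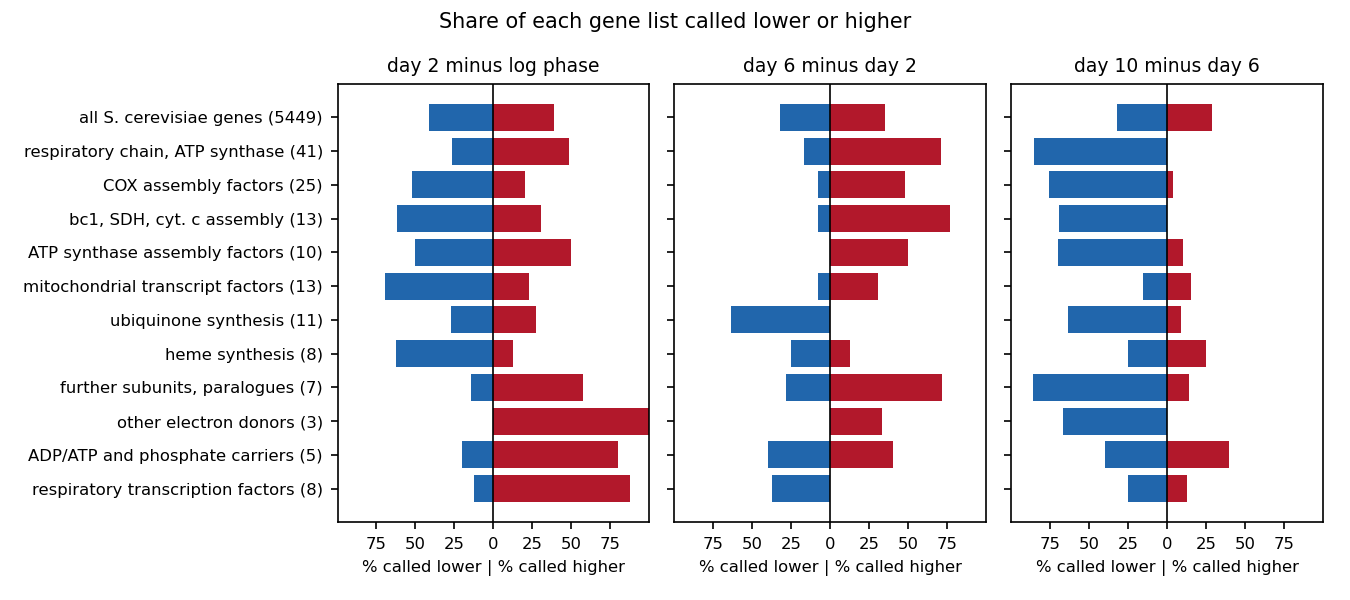
Bars give the share of each list called lower (left, blue) or higher (right, red) between successive times, with the number of genes in parentheses (ATP10 included) and all genes on top. From day 2 to day 6, 29 of the 41 respiratory chain and ATP synthase genes are higher where no ubiquinone synthesis gene is, and from day 6 to day 10, 35 of the 41 are lower. On the hybridisation-control scales the day 2 to day 6 excess of higher calls is lost in all of these lists.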

How the data were processed

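Each of the 12 arrays is 1 sample. The authors deposited 1 log2 value per probe set, which they computed, per the submitters' processing notes, by PLIER, a model that merges a probe set's probes. How they corrected background and normalized arrays is not given in the sources consulted. The scale was read from the range of the values, 5.11 to 13.79, which has a floor, so differences of dim genes are understated. The table held 10928 probe sets. Gene symbols came from the platform annotation, updated by gene ID from RefSeq's table for the reference strain S288C, and 5498 probe sets stood for 5449 genes (for 47 genes the probe set with the highest mean). The values were used as deposited, with no further normalization. limma 3.58.1 in R 4.3.3 fitted 1 mean per time to all 12 arrays, with 8 residual degrees of freedom, and p-values were adjusted over all genes by Benjamini-Hochberg. On data simulated for day 6 minus log phase with all 5449 genes, 50 genes were changed by each size. Of those changed by 0.25, 48% were recovered, of those changed by 0.5, 92%, and of those changed by 1 or 2, all, with 12 false calls. Far more genes were called in the data (41.6% higher and 41.1% lower). The adjusted threshold therefore differs and these shares need not hold for the data. No counts or depths exist for arrays, and 3 arrays per group limit the precision.

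Levels were given for every one of the 41 genes. Differences were named for the 6 largest called per contrast, for both genes of 4 isoform pairs and for genes opposite to most called genes of their complex, and in the further lists for up to 3 called genes per list and contrast and for all transcription factors. The genes, lists and tests were chosen with earlier results of these data known. Alternatives were other scalings, an offset of 16, filters, other rules for several probe sets, other priors, a replicate block, the 3' minus 5' signal as a covariate, fits of only the 6 arrays compared and leaving out each array. Deviations from the time means were correlated between arrays of different times. For same-numbered arrays the mean correlation was 0.01 over 18 pairs, 5 of them above 0.1. For differently numbered arrays it was -0.0062 over 36 pairs, 11 of them above 0.1. The numbers were therefore not taken to pair arrays. No genome was used and no coordinates or sequences are given.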

Additional observations from a re-analysis of the deposited data

How the results depend on the processing

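The scaling between arrays moved most counts. Centred on the hybridisation controls, the genes called higher and lower were 9 and 20 for day 2 minus log phase, 5 and 25 for day 6 minus log phase, 5 and 31 for day 10 minus log phase, 2 and 19 for day 6 minus day 2, and 1 and 35 for day 10 minus day 2, with 14 lower for day 10 minus day 6. Without bioB these were 16 and 4, 8 and 17, 7 and 29, 2 and 20, and 1 and 35, with 12 lower. Single differences that turned with bioB included were NDE1 (-0.061) and ATP14 (-0.10) on day 2, COX5A (-0.66) and INH1 (-0.084) on day 6, and CYC7 (-0.68), ATP4 (-0.20), ATP18 (-0.76) and INH1 (-0.88) on day 10, each against log phase. From day 2, COX5A (-0.22) and STF1 (-0.26) turned on day 6, and ATP15 (-0.21) and ATP18 (-0.063) on day 10. Without bioB, COX5A (-0.32) turned on day 6 and CYC7 (-0.36), ATP18 (-0.44) and INH1 (-0.55) on day 10 against log phase, as did CYC1 (-0.031), COX5A (-0.26) and STF1 (-0.30) on day 6 and ATP15 (-0.25) and ATP18 (-0.11) on day 10 against day 2.

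With the 3' minus 5' signal as covariate, 6 genes were lower on day 2 than in log phase, 10 were higher and 1 lower on day 6 than on day 2, 1 was higher on day 10 than on day 6, and 2 were higher and 7 lower on day 10 than on day 2. QCR10 (0.095 on day 2 against log phase), RIP1 (0.20) and ATP5 (0.092, both day 6 against day 2) changed sign. With only the 6 arrays of the contrast 1 gene was higher on day 10 than on day 6. Leaving out single arrays gave 7 to 11 genes lower on day 2 than in log phase. The 4 pair changes kept their calls with an offset of 16, under quantile normalization and when single arrays were left out. Without single arrays they lay between 1.81 and 2.21 for COX5B minus COX5A and between 3.04 and 3.37 for CYC7 minus CYC1. Centring and the rules for several probe sets cannot alter a pair's difference and are no check of it. The pairs were not run with the 3' minus 5' covariate, a replicate block or only the 6 arrays of a contrast. Over the differences named for single genes, 1784 comparisons with an alternative kept direction and call, 64 lost the call, 24 gained it and 24 changed sign. Those kept include 79 each from the filter on dim genes and the other rules for several probe sets, which leave these differences as they are. Another 917 came from leaving out 1 array. The sign changes were 12 on the hybridisation-control scale with bioB, 9 without it and 3 with the 3' minus 5' covariate. The causes were not tested.

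The replicate number was also used as a block, a pairing that the mean correlations do not bear out. With it, 20 genes were higher and 10 lower on day 2 than in log phase. On day 6, 30 were higher and 7 lower than on day 2. For 7 of the 12 arrays the best correlation with an array of another time was with the same number. That count was not tested, so a pairing is not excluded. The block lost the call of QCR10 on day 2 (adjusted p = 0.0522) and gained that of COX5A for day 10 minus day 2 (adjusted p = 0.0186), and it changed no other call named here.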
